A study of Mus musculus with 8 samples.

Results

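Mitochondrial ribosomal protein genes were taken as every gene whose symbol is Mrpl or Mrps followed by digits and at most 1 letter. The rule used symbols alone and found 77 of the 54146 genes quantified, 48 with an Mrpl and 29 with an Mrps symbol, and it left out 5 pseudogene symbols ending in -ps. RNA was sequenced from primary astrocytes cultured from the cortices of C57BL/6 mouse pups at postnatal days 2 to 5, in 8 libraries. The cells carried a lentiviral shRNA against Gstm1 (GSTM1 KD) or a non-silencing shRNA (control KD), and were taken without stimulation (basal) or after a 6 h exposure to TNF-α (50 ng/ml). This gave 4 groups of 2 replicates: control KD basal, GSTM1 KD basal, control KD after TNF-α and GSTM1 KD after TNF-α. All of them shared lentiviral infection, puromycin selection, shaking off of loosely attached glia and depletion of CD11b+ cells, and each flask was seeded from the brains of about 2 pups. The study calls its replicates biological, but the labels do not tie them to separate cultures or litters, so p-values measure the spread between these libraries.

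The mitochondrial ribosome (mitoribosome) translates the few messages of mitochondrial DNA, which encode core subunits of the respiratory chain. Its RNAs are made in the mitochondrion, but all of its proteins are encoded in the nucleus, made in the cytosol and imported. The large subunit joins amino acids and holds the exit tunnel, and the small subunit decodes the message. Some of the proteins have a direct counterpart in the bacterial ribosome, whereas others exist only in mitochondria or are extra copies found only there. The large subunit was divided mostly by symbol number. By this division 29 members were counted as large subunit proteins with a bacterial counterpart and 21 as mitochondrion-specific large subunit proteins. Mrps30 and Mrps18a stand among the latter despite their symbols. Mrpl55, which has a bacterial counterpart, was also counted there by its number, and the class values below keep it there. Of the rest, 16 are small subunit proteins with a bacterial counterpart and 10 are mitochondrion-specific small subunit proteins. The 3 relatives of bacterial S18 were divided, with Mrps18c counted as the counterpart and Mrps18a and Mrps18b, as extra copies, among the mitochondrion-specific proteins. Mrps36 keeps its old symbol but is a subunit of the alpha-ketoglutarate dehydrogenase complex. The members lie on 17 chromosomes, and in the GENCODE M21 annotation of GRCm38 the exons of 32 of them overlap those of another gene, on the same strand in 8 and on the opposite strand in 27.

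Promoter sequences are shown for the members at both ends of the knockdown comparison to give the start regions of genes described below. Of the members with a RefSeq promoter window, Mrpl10 and Mrps18b had the lowest log2 fold changes averaged over both states, and Mrpl36 and Mrps6 the highest. Each window runs from 250 bases before to 50 bases after the RefSeq start, 5′ to 3′ on the gene's strand, in GRCm38.p6. The window of Mrpl10 is chr11:97041332-97041631 on the plus strand, that of Mrps18b chr17:35916391-35916690 on the minus strand, that of Mrpl36 chr13:73330759-73331058 on the plus strand and that of Mrps6 chr16:92058086-92058385 on the plus strand. Capitals mark matches, on either strand, to 4 words: GCGCANGCG (NRF1-type), CCGGAAG (ETS-type), AAGATGG (YY1-type) and CACGTG (E-box).
Mrpl10: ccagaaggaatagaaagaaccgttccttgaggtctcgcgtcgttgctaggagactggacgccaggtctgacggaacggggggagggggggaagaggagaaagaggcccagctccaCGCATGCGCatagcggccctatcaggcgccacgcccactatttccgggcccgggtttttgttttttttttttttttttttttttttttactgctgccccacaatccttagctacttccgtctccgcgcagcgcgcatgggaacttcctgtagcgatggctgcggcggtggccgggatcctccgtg
Mrps18b: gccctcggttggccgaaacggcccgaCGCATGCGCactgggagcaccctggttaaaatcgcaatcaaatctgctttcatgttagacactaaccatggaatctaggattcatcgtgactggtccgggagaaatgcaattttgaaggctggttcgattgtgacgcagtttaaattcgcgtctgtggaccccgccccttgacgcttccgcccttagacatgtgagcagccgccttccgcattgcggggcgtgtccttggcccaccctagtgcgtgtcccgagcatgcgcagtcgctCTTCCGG
Mrpl36: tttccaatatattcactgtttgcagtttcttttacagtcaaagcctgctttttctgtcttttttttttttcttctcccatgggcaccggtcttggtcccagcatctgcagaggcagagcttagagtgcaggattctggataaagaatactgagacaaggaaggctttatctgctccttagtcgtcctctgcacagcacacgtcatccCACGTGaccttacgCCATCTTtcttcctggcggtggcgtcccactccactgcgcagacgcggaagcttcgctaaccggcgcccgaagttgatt
Mrps6: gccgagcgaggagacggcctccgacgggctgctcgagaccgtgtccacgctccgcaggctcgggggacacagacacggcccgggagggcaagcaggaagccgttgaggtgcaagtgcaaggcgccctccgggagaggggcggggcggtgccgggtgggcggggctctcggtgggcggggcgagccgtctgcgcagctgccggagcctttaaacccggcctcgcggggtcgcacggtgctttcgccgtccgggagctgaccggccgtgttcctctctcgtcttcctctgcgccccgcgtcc

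Mrpl10 and Mrps18b each held the NRF1-type word, and Mrps18b also the ETS-type word. Mrpl36 held the YY1-type word and the E-box, and these letters were not found in the window of Mrps6. Windows were available for 68 members, Mrpl54 and Mrpl15 not among them, no 2 words overlapped in any of them, and 44 held at least 1 word. The ETS-type word was in 24 member windows (35.3%) and in 9.12% of 27025 windows of all genes. The NRF1-type word was in 16 member windows (23.5%, against 6.47% of all windows) and the YY1-type word in 13 (19.1%, against 6.48%). The E-box was in 5 member windows (7.35%), close to its share of all windows (7.24%). A match describes the letters only. Members with the NRF1-type word had a median log2 fold change under GSTM1 KD of -0.13 (basal) and -0.12 (after TNF-α), beside 0.01 and -0.04 for the 52 members without it. For the ETS-type word these medians were 0.02 and -0.04 with it, and -0.10 and -0.10 without it. For the YY1-type word they were 0.10 and 0.04 with it, and -0.05 and -0.08 without it. The 5 members with the E-box had medians of 0.12 and 0.17, beside -0.03 and -0.09 for the 63 without it. The motif groups were not tested against each other.

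The libraries held 17349676 to 34434633 expected counts, and the members took 0.286% to 0.348% of them. Every member had counts in every library, from 165 (Mrpl54 in GSTM1 KD basal replicate 2) to 6768 (Mrps6 in control KD basal replicate 1), and all 77 passed the filter on low counts in every comparison. Gstm1, the targeted gene, was at 231 and 377 CPM (counts scaled to a common library total) in control KD basal and at 29.0 and 31.4 CPM in GSTM1 KD basal, and at 209 and 391 against 24.3 and 23.3 CPM after TNF-α. All 10 astrocyte markers checked were detected in every library. Their summed level was 3231 and 7207 CPM in control KD basal, 6571 and 9607 in GSTM1 KD basal, 3317 and 7340 in control KD after TNF-α, and 6726 and 9519 in GSTM1 KD after TNF-α. The 10 markers of microglia and macrophages summed to 4.06 to 12.5 CPM, with P2ry12 at 3 or fewer counts in all libraries, and Snap25 of the neuron list, Cldn5 of the endothelial list and Mog and Mag of the oligodendrocyte list were also at 3 or fewer. Other cell types' markers were present. The neuron list summed to 397 to 505 CPM, led by Map2 (219 to 287) and Stmn2 (86.8 to 129), and the oligodendrocyte lineage list to 537 to 840 CPM, led by Olig1 (297 to 519). The fibroblast list summed to 268 and 465 CPM in control KD basal and to 146 and 279 CPM in GSTM1 KD basal, and ran from 146 to 465 CPM over all libraries. Ranges were 43.4 to 104 CPM for endothelial cells and pericytes, 93.5 to 165 for choroid plexus and ependymal cells and 401 to 651 for proliferating cells.

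Some markers moved with the knockdown, and each is given beside the median of its list. In the lists with a marker called in the knockdown comparisons, knockdown values ran in both directions, with 1 exception. After TNF-α all 5 tested genes of the choroid plexus and ependymal list were above 0. Of the 10 astrocyte markers, 7 were above 0 in the basal comparison and 6 in that after TNF-α, with median log2 fold changes of 0.51 and 0.28. Gfap, which leads their summed level, was at 1.10 (SE 0.56, adjusted p = 0.23 by edgeR) and 1.08 (SE 0.55, adjusted p = 0.22 by edgeR). The only astrocyte marker called was S100b, which fell by 1.44 and after TNF-α by 1.71 (adjusted p = 0.027 and 0.039 by edgeR). In the oligodendrocyte lineage list (medians -0.40 and -0.44, 7 tested) the factor Olig2 fell by 0.85 and 1.14 (adjusted p = 0.025 and 0.010 by edgeR), and Olig1 by 0.44 after TNF-α (adjusted p = 0.050 by edgeR). Col1a2, a collagen gene of the fibroblast list (medians -0.81 and -0.63, 6 tested), fell by 1.13 and 0.99 (adjusted p = 0.035 and 0.025 by edgeR). In the choroid plexus and ependymal list (medians 1.15 and 1.18, 5 tested) Folr1, at 0.129 to 2.76 CPM, rose by 2.67 and 2.78 (adjusted p = 0.048 and 0.033 by edgeR) and Pifo by 1.18 after TNF-α (adjusted p = 0.050 by edgeR). In the endothelial cell and pericyte list (medians 0.46 and 0.81, 5 tested) Pdgfrb rose by 0.81 after TNF-α (adjusted p = 0.034 by edgeR). None of the 5 microglia and macrophage markers tested was called. Their median log2 fold changes were -0.93 (basal, 0 above 0) and -0.68 (after TNF-α, 1 above 0). In the responses to TNF-α, Pdgfrb fell by 1.28 in control KD (adjusted p = 0.028 by edgeR), where the median of its list was 0.37, and Olig2 fell by 0.67 in GSTM1 KD (adjusted p = 0.031 by edgeR), where the median of its list was 0.00. The part of other cell types in the members' values was not tested. In bulk RNA, fewer cells of a type and less RNA per cell cannot be told apart.

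The control KD replicates stood apart from each other in the members. In control KD basal, 72 of 77 members were higher in replicate 1 than in replicate 2, with a median log2 difference of 0.24 (1.18-fold). In control KD after TNF-α the count was 59 with a median of 0.15, in GSTM1 KD basal 65 with a median of 0.08, and in GSTM1 KD after TNF-α 61 with a median of 0.08. Over the 15332 genes tested on all libraries, 48.4% to 50.3% were higher in replicate 1 in each group, and the medians lay between -0.01 and 0.00. In all 4 groups at once, 41 members were higher in replicate 1 and 2 were lower, whereas 18.2% of all genes were higher in all 4. Mrps18b had the largest excess in replicate 1 of control KD basal (0.72), and Mrps6 went the other way (-0.27). The same replicates differed in cytosolic ribosomal protein genes, which summed to 33030 and 25343 CPM in control KD basal, and in the summed level of the astrocyte markers, which was lower in replicate 1 of every group. The part of these in the members' difference was not tested.

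**Figure D1:**
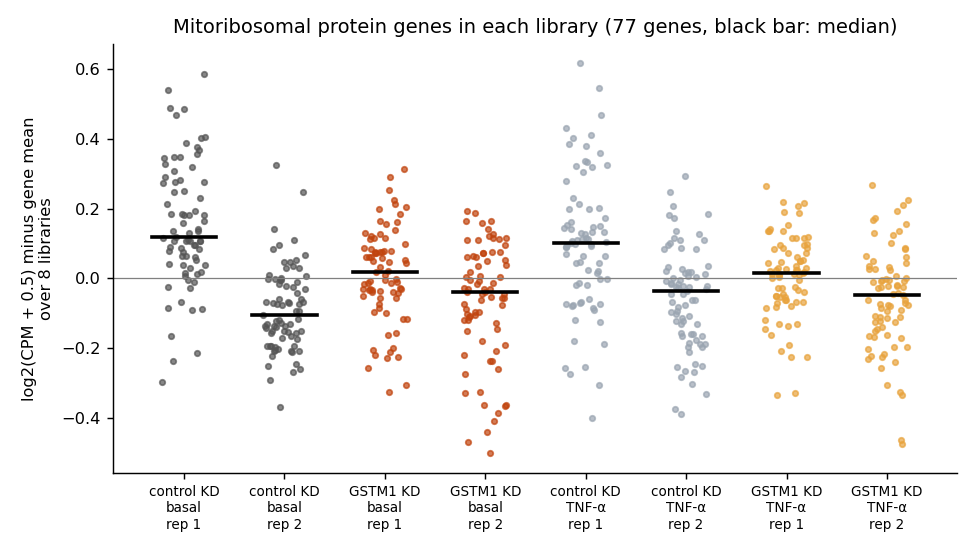
Level of the 77 members in each library, as log2(CPM + 0.5) minus the gene's mean over the 8 libraries (vertical axis), with 1 point per gene and the median as a black bar. The median is 0.12 in control KD basal replicate 1 and -0.10 in replicate 2, and lies between -0.05 and 0.02 in the GSTM1 KD libraries.

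The members were expressed over a wide range. On the TPM scale (transcript abundance divided by length and scaled to a common total), the mean over the 8 libraries had a median of 75.2 over the members, and 63 of 77 lay between 40 and 140 TPM. Mrps6, a small subunit protein of the platform region, was highest at 676 ± 128 TPM (SD, n = 8). It was followed by Mrpl17, a large subunit protein near the tunnel exit, at 338 ± 19.8 TPM and Mrps21, a small subunit protein, at 278 ± 17.1 TPM. The lowest were Mrpl1, a protein of the large subunit stalk, at 14.4 ± 3.15 TPM, Mrpl11, which sits at the base of the factor-binding stalk, at 22.9 ± 1.81 TPM and Mrps27 at 28.4 ± 5.13 TPM. The highest mean was 46.9-fold above the lowest, and 23.4-fold when Mrps6 was set aside. The exons of Mrps6 overlap those of Slc5a3 on the same strand, so the division of counts between these 2 genes is uncertain. Medians of the classes as divided above were 84.8 TPM for large subunit and 84.8 TPM for small subunit proteins with a bacterial counterpart. They were 61.4 TPM for the mitochondrion-specific class of the large subunit, Mrpl55 included, and 59.7 TPM for that of the small subunit.

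**Figure D2:**
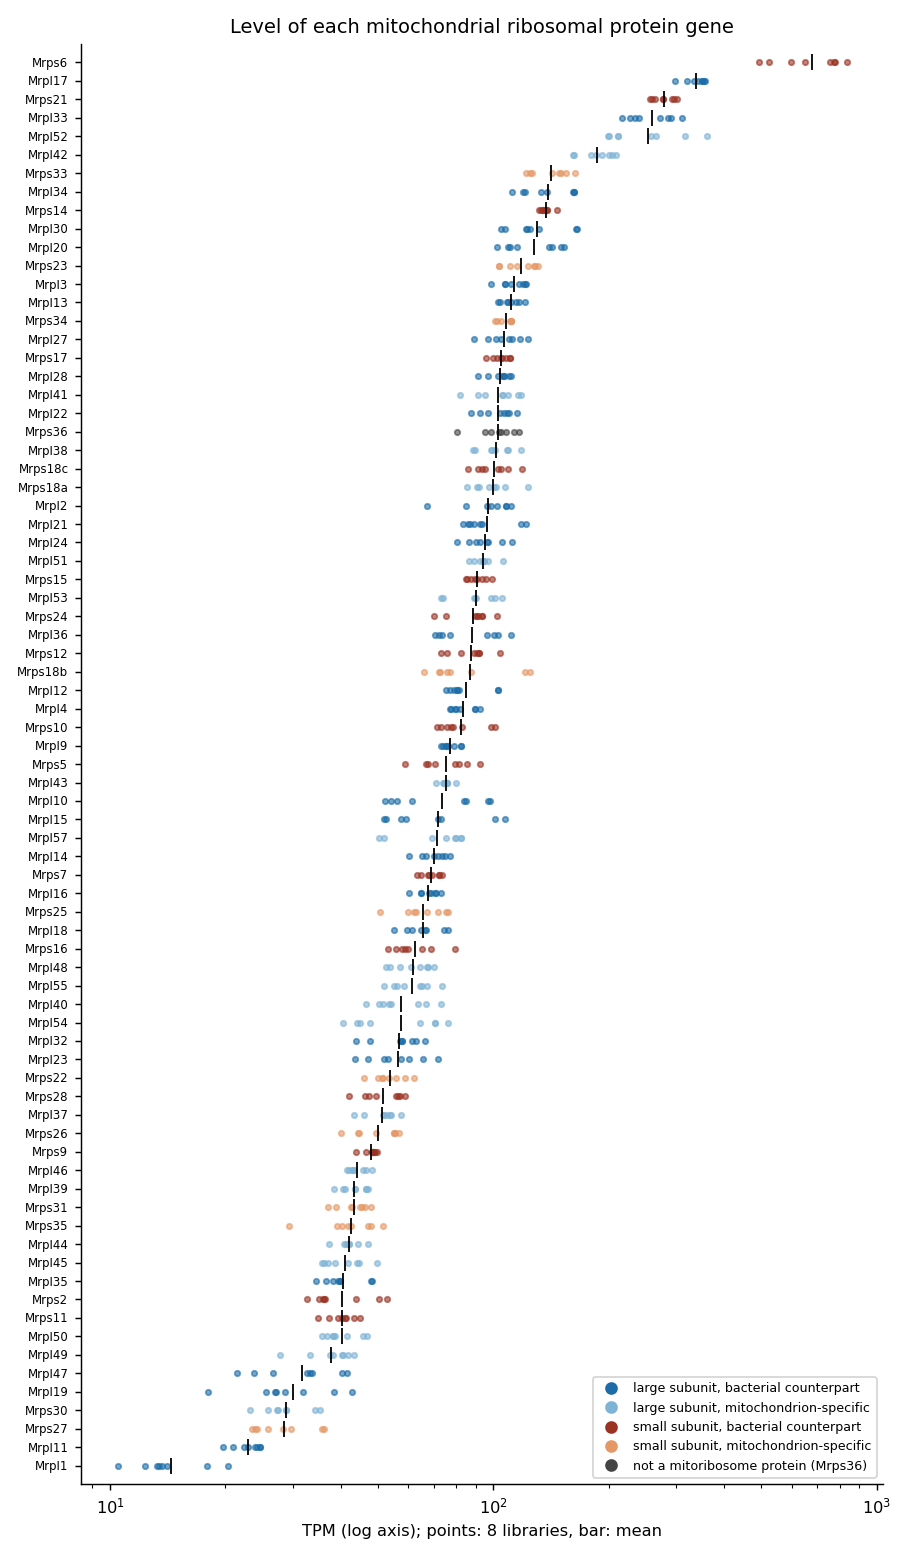
TPM of each member on a log axis, with 1 point for each of the 8 libraries and a bar at the mean, ordered by the mean and coloured by class. Mrps6 at 676 TPM stands above all others, and Mrpl1 at 14.4 TPM is lowest.

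Summed over the members, TPM was 7217 ± 664 in control KD basal and 7489 ± 267 in GSTM1 KD basal (SD, n = 2 each). After TNF-α the control KD sum was 7070 ± 462 and the GSTM1 KD sum 7274 ± 146. The replicates of the groups overlapped in both states, since the control KD basal libraries were at 7687 and 6748 and the GSTM1 KD basal libraries at 7678 and 7300.

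The first comparison asks whether the knockdown changed these genes at the basal level. Of the 77 members, 2 were lower in GSTM1 KD and none was higher at an adjusted p of 0.05 (edgeR quasi-likelihood test, Benjamini-Hochberg over all genes tested). Across the 14899 genes tested, 4.6% were called higher and 5.62% lower, so the members' 2.60% is below the background of both directions together. The median log2 fold change of the members was -0.01, with 37 above and 40 below 0, beside -0.00 for all genes. Their median absolute log2 fold change was 0.15, beside 0.31 for all genes tested. The groups did not overlap in CPM for 37 members (48.1%), 17 higher and 20 lower, beside 63.5% of all genes. The 95% interval of the fold change lay within 1.5-fold in both directions for 50 members and within 2-fold for 71.

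Mrpl10 (ENSMUSG00000001445.10, chr11:97041560-97049213, plus strand) forms, with copies of Mrpl12, the stalk that recruits translation factors to the large subunit. It was at 85.1 and 72.0 CPM in the control KD basal replicates and at 50.7 and 44.5 CPM in GSTM1 KD. Both knockdown libraries lay below both controls, and the level fell by 0.72 on the log2 scale (SE 0.13, adjusted p = 0.033 by edgeR's quasi-likelihood test), to 60.6% of control KD. After TNF-α its libraries were at 84.1 and 74.4 CPM in control KD and at 47.9 and 43.8 CPM in GSTM1 KD. It fell again, by 0.81 on the log2 scale (SE 0.12, adjusted p = 0.017 by edgeR), to 56.9% of control KD. Exons of Mrpl10 overlap the opposite-strand gene Gm11574, as those of Mrpl12, Mrpl18, Mrps18b, Mrpl36, Mrps25, Mrps27 and Mrps30 overlap other genes of the opposite strand, and such levels are uncertain where counting ignored the strand. Mrpl53 (Gm42688) and Mrps18c (Gm43511) overlap a gene of the same strand, so their levels are uncertain with or without the strand. Mrpl12, its partner in the stalk, was at 64.3 and 49.4 CPM in control KD basal and 48.4 and 47.7 CPM in GSTM1 KD (log2 fold change -0.24, SE 0.15, adjusted p = 0.32 by edgeR).

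Mrpl54 (ENSMUSG00000034932.4, chr10:81264713-81266934, minus strand) is a mitochondrion-specific large subunit protein. It was the member with the fewest counts, 165 to 598 per library. Its level was 16.9 and 15.1 CPM in control KD basal and 9.40 and 8.27 CPM in GSTM1 KD. The groups did not overlap, and Mrpl54 fell by 0.86 on the log2 scale (SE 0.17, adjusted p = 0.040 by edgeR), to 55.3% of control KD. After TNF-α it was at 15.4 and 13.8 CPM in control KD and 9.38 and 10.1 CPM in GSTM1 KD, again without overlap. There the log2 fold change was -0.61 (95% interval -1.03 to -0.20), which missed the threshold at an adjusted p of 0.061 by edgeR. It was called by edgeR with no filter on low counts (adjusted p = 0.026) and on all 8 libraries (0.031), but not by DESeq2 (0.070). An edgeR fit that also blocked by replicate number (replicate block) called it as well (adjusted p = 0.040). The labels do not say what the shared numbers mean. The interaction of knockdown and stimulation for Mrpl54 was 0.27 on the log2 scale (95% interval -0.21 to 0.75), an interval that includes 0.

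Both calls held when either control KD basal library was left out (adjusted p of 0.016 and 0.00070 for Mrpl10 and 0.041 and 0.0054 for Mrpl54, without replicate 1 and 2, by edgeR). Both were lost without either GSTM1 KD basal library (0.14 and 0.28 for Mrpl10, 0.16 and 0.29 for Mrpl54). Without control KD basal replicate 2, 24 members were called (22 lower; 31.2%), without control KD basal replicate 1, 5 were called (6.49%), and without either GSTM1 KD basal replicate none was. The share of all genes called was 34.2% and 14.3% without control KD replicate 2 or 1, and 0.00643% and 0.0193% without GSTM1 KD replicate 1 or 2.

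The other members at the low end did not pass the threshold in the main edgeR fit at the basal level (4 libraries, filtered, no replicate block). Mrpl15, a core large subunit protein, was at 52.2 and 38.3 CPM in control KD and 30.6 and 25.7 CPM in GSTM1 KD (log2 fold change -0.69, SE 0.19, adjusted p = 0.074 by edgeR). Leaving out control KD replicate 1 or 2 gave -0.45 or -0.90. Mrps18b, one of the 3 relatives of bacterial S18, was at 58.3 and 35.3 CPM in control KD and 31.2 and 30.8 CPM in GSTM1 KD (-0.60, SE 0.24). Its control replicates differed from each other by more than the lower of them differed from the knockdown. Without replicate 1 of control KD the log2 fold change of Mrps18b was -0.19, and without replicate 2 it was -0.92. Mrpl52 was at -0.60, Mrpl23 at -0.57 and Mrps27, a small subunit protein with pentatricopeptide repeats, at -0.51 on the log2 scale. Their adjusted p values were 0.086, 0.11 and 0.10 by edgeR. Without control KD replicate 1 these fold changes were -0.39, -0.38 and -0.34, and without replicate 2 -0.79, -0.75 and -0.67. DESeq2 did call Mrpl15 (adjusted p = 0.017) and Mrpl52 (adjusted p = 0.041). With the replicate block edgeR called Mrpl15 (adjusted p = 0.0011), Mrps18b (0.013), Mrpl52 (0.0056), Mrpl23 (0.023) and Mrps27 (0.017). With no filter on low counts and no block, edgeR called them too (0.00021, 0.0012, 0.0044, 0.031 and 0.024, in that order). The edgeR fit of all 8 libraries called Mrpl23 alone of these (0.047).

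At the high end, Mrpl36, a small zinc-binding protein of the large subunit, was at 27.9 and 26.8 CPM in control KD basal and 40.4 and 36.97 CPM in GSTM1 KD. Its log2 fold change was 0.50 (95% interval 0.20 to 0.79), with an adjusted p of 0.056 by edgeR and 0.042 by DESeq2. Mrps6 was at 191 and 231 CPM in control KD and 288 and 264 CPM in GSTM1 KD (0.38, SE 0.14, adjusted p = 0.13 by edgeR). Leaving out control KD replicate 1 or 2 gave 0.25 or 0.52 for it. Slc5a3, which shares exon positions with it, was at -0.32 (SE 0.13), in the other direction. Mrpl20, a large subunit protein that binds ribosomal RNA, was at 0.38 (SE 0.11) and Mrps25, a mitochondrion-specific small subunit protein, at 0.31 (SE 0.11). For these 4 members both knockdown libraries lay above both controls. With the replicate block edgeR called Mrpl36 (adjusted p = 0.0090), Mrps6 (0.024), Mrpl20 (0.028) and Mrps25 (0.038). Without a block, edgeR on all 8 libraries called Mrpl36 (0.019) and Mrpl20 (0.032), and with no filter on low counts Mrpl36 (0.034). Neither of these fits called Mrps6 or Mrps25. With effective lengths as offsets the log2 fold change of Mrps25 was 0.22.

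**Figure D3:**
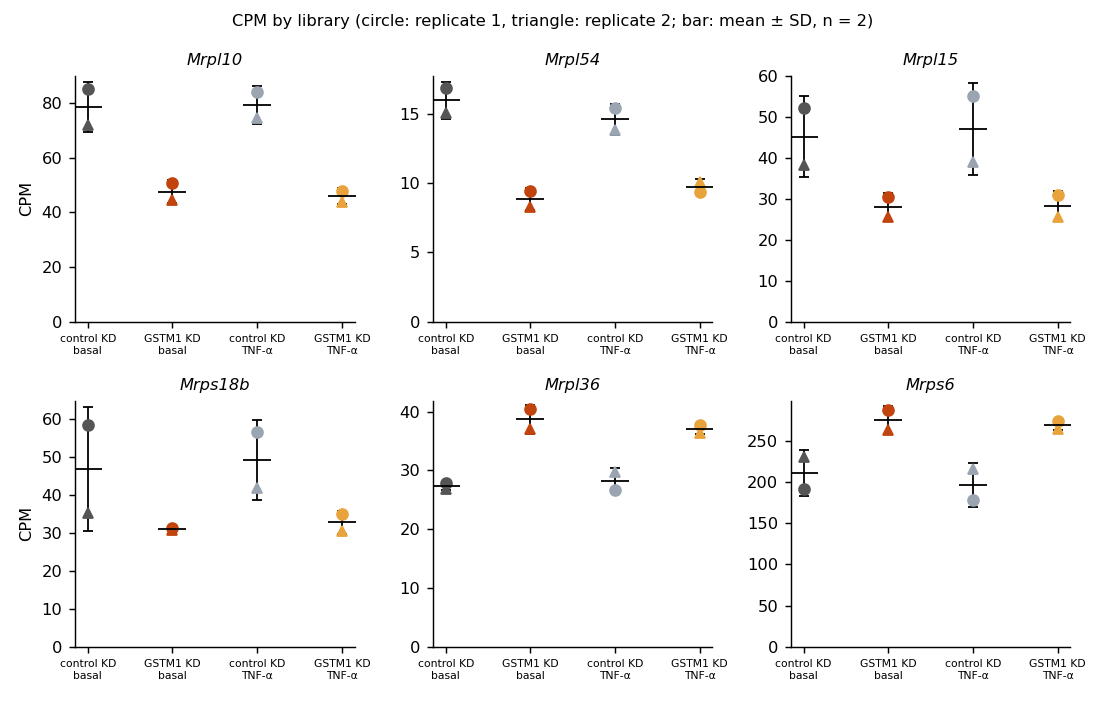
CPM by library for Mrpl10, Mrpl54, Mrpl15, Mrps18b, Mrpl36 and Mrps6 in the 4 groups (circle, replicate 1; triangle, replicate 2; bar, mean ± SD, n = 2), each axis from 0. Mrpl10 is at 85.1 and 72.0 CPM in control KD basal and at 50.7 and 44.5 CPM in GSTM1 KD basal, and Mrps18b shows the wide control replicates of 58.3 and 35.3 CPM.

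After TNF-α, Mrpl10 alone of the 77 members was called lower and none was called higher by edgeR. Of the 14593 genes tested, 7.26% were called higher and 8.92% lower, beside 1.299% of the members. The median log2 fold change of the members was -0.06, with 30 above and 47 below 0, beside -0.01 for all genes. Groups did not overlap for 42 members (54.5%), 19 higher and 23 lower, beside 66.6% of all genes. The interval lay within 1.5-fold for 48 members and within 2-fold for 73. Without control KD replicate 2 of this state 18 members (23.4%) were called, beside 32.9% of all genes, and without replicate 1, 3 (3.90%), beside 18.3%. Without either GSTM1 KD replicate none was, when 0.616% of all genes or fewer were called.

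Mrps2, a small subunit protein of the head and body junction, was at 57.8 and 48.5 CPM in control KD after TNF-α and 38.8 and 38.0 CPM in GSTM1 KD (-0.49, SE 0.13, adjusted p = 0.053 by edgeR). Mrps27 was at 32.4 and 27.6 CPM and at 20.8 and 21.2 CPM (-0.54, SE 0.14, adjusted p = 0.053 by edgeR). Mrpl15 was at 55.1 and 39.1 CPM in control KD and 30.9 and 25.6 CPM in GSTM1 KD (-0.76, SE 0.20, adjusted p = 0.058 by edgeR). Leaving out replicate 1 or 2 of this control KD group gave -0.49 or -0.98 for Mrpl15. In these 3 genes the groups did not overlap but the main edgeR fit, which has no replicate block, did not call them. With the block edgeR called Mrps2 (adjusted p = 0.016), Mrps27 (0.024) and Mrpl15 (0.0043). With no filter on low counts and no block, edgeR called them too (0.0064, 0.011 and 1.6e-05, in that order). The edgeR fit of all 8 libraries called Mrps27 alone of these (0.0496). DESeq2 called all 3 (adjusted p = 0.043, 0.048 and 0.0094), with Mrps18b (0.030) and Mrps6 (0.043). The highest were Mrps6 (0.43, SE 0.12), Mrpl36 (0.37, SE 0.12) and Mrps25 (0.37, SE 0.10). Their adjusted p values were 0.069, 0.083 and 0.064 by edgeR, and 0.028, 0.057 and 0.027 by edgeR with the block.

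**Figure D4:**
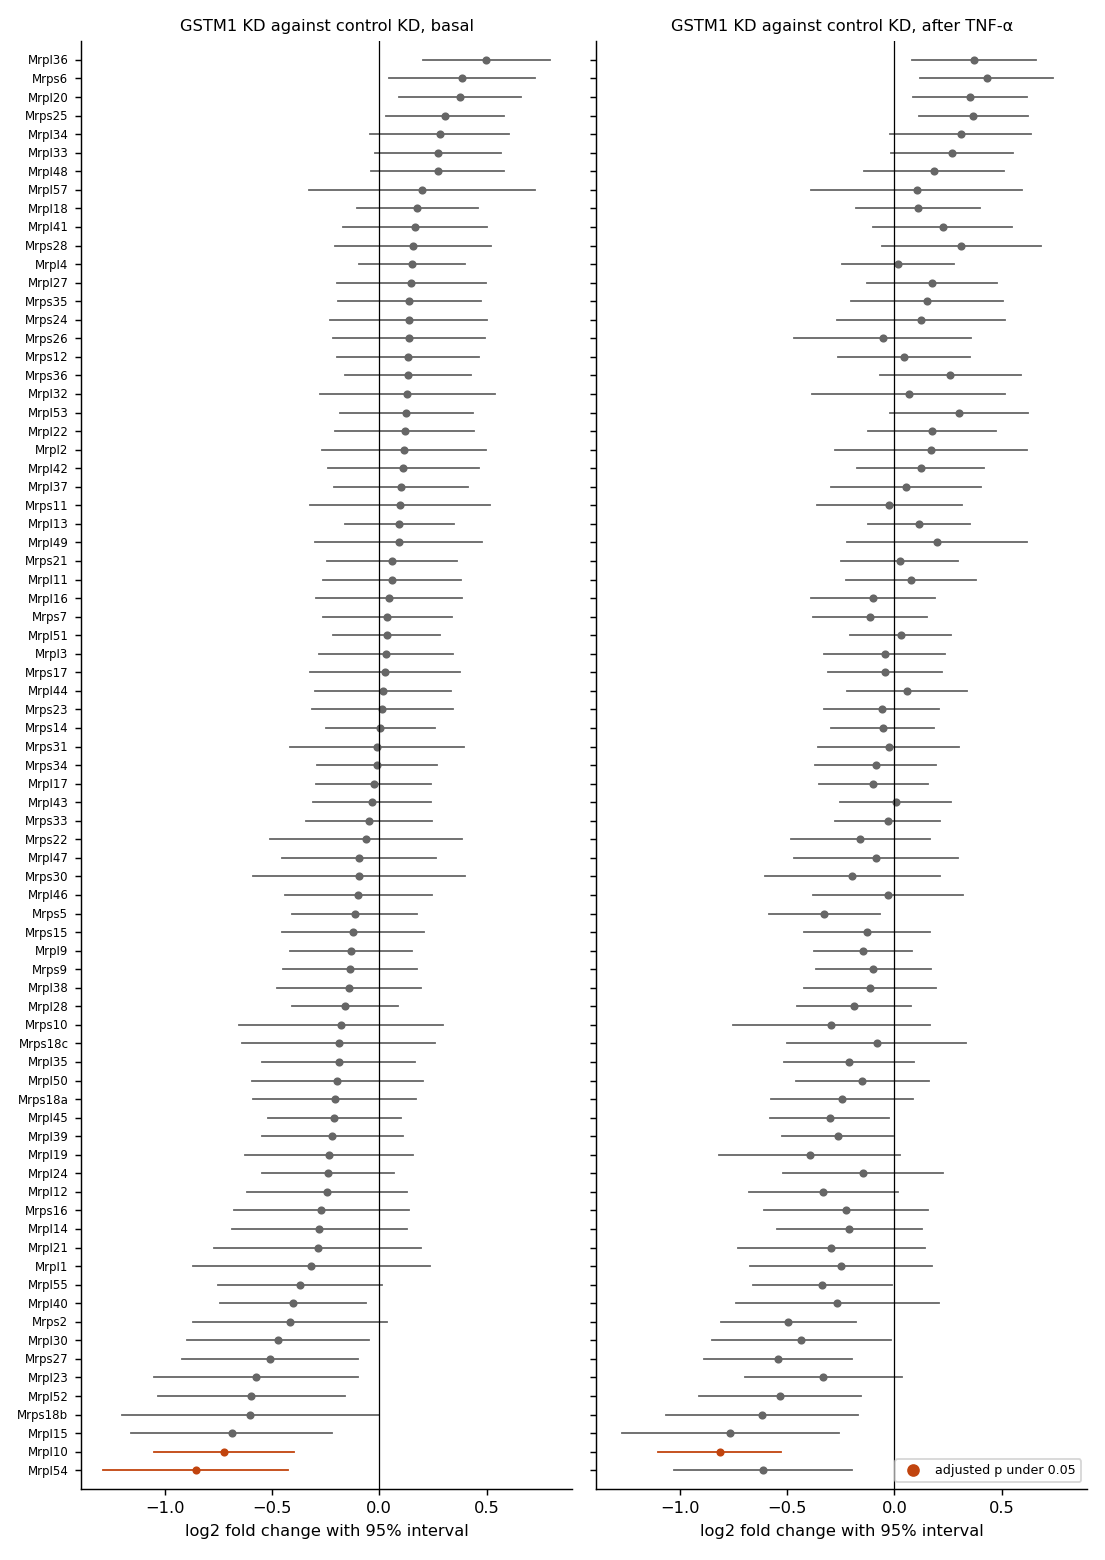
Log2 fold change of GSTM1 KD against control KD for each of the 77 members with its 95% interval, at the basal level (left) and after TNF-α (right), ordered by the basal value. Members called at an adjusted p under 0.05 are in red: Mrpl54 (-0.86) and Mrpl10 (-0.72) on the left, and Mrpl10 (-0.81) on the right.

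The knockdown comparisons of the 2 states use different libraries. The log2 fold changes of 68 members (88.3%) had the same sign in both, beside 87.4% of the 14379 genes tested in both. Pearson's r between the states was 0.94 over the 77 genes, beside 0.84 across all genes, where a gene is not an independent replicate. Libraries with the same replicate number also deviated together. Below -0.3 in both states were 10 members, and above 0.3 in both were 4. The spread of the members' log2 fold changes (SD over genes) was 0.27 in each state, beside 0.64 and 0.67 over all genes.

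TNF-α moved no member past the threshold in control KD or in GSTM1 KD. In control KD, 0 of 77 members were called by edgeR and 0 by DESeq2, with 3 (3.90%) and 1 at an unadjusted p under 0.05, beside 12.5% of all genes at that p by edgeR. After adjustment, 2.1% of the 15332 genes tested were called higher and 0.528% lower. In GSTM1 KD, 0 members were called by either tool and 0 had an unadjusted p under 0.05, beside 10.9% of all genes at that p by edgeR, and 2.35% of genes were called higher and 0.294% lower. The median log2 response of the members was -0.01 in each, beside -0.02 and -0.01 for all genes. The 95% interval lay within 1.5-fold for 74 members in control KD and 73 in GSTM1 KD. Groups did not overlap for 7 members (9.09%) in control KD, beside 34.5% of all genes, and for 28 (36.4%) in GSTM1 KD, beside 44.5%.

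Mrps12, a small subunit protein of the decoding centre, had the highest response in control KD as in GSTM1 KD. It was at 23.1 and 21.7 CPM in control KD basal and at 28.1 and 28.0 CPM after TNF-α (0.33, 95% interval 0.06 to 0.59, adjusted p = 0.25 by edgeR). In GSTM1 KD it was at 25.8 and 23.4 CPM and at 27.6 and 31.3 CPM (0.26, 95% interval -0.00 to 0.52). Both stimulated libraries lay above both basal ones in each. Mrpl45, which anchors the mitoribosome at the inner membrane, was at 55.4 and 46.7 CPM and then 64.3 and 58.5 CPM in control KD (0.27, SE 0.11), and its response in GSTM1 KD was 0.20 (SE 0.11). Mrpl53, a mitochondrion-specific large subunit protein, went from 24.9 and 23.7 CPM to 19.9 and 19.98 CPM in control KD (-0.29, SE 0.10), and its response in GSTM1 KD was -0.09 (SE 0.10). The lowest response in GSTM1 KD was that of Mrpl18 (-0.21, SE 0.09), which was at -0.17 in control KD. Since the basal libraries enter both the responses and the knockdown comparison, these values are not independent of those above.

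The difference of the TNF-α responses between GSTM1 KD and control KD was called for 0 of the 77 members and for 0% of the 15332 genes by edgeR. No member reached an unadjusted p of 0.05 by edgeR or DESeq2, beside 1.92% of all genes by edgeR. The members' values ran from -0.19 (Mrps5) to 0.27 (Mrpl23), with a median SE of 0.18, and the 95% interval lay within 2-fold for all 77. For 55 members it lay within 1.5-fold, and the median half-width of the interval was 0.41 on the log2 scale, so that smaller differences were not resolved in most members.

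**Figure D5:**
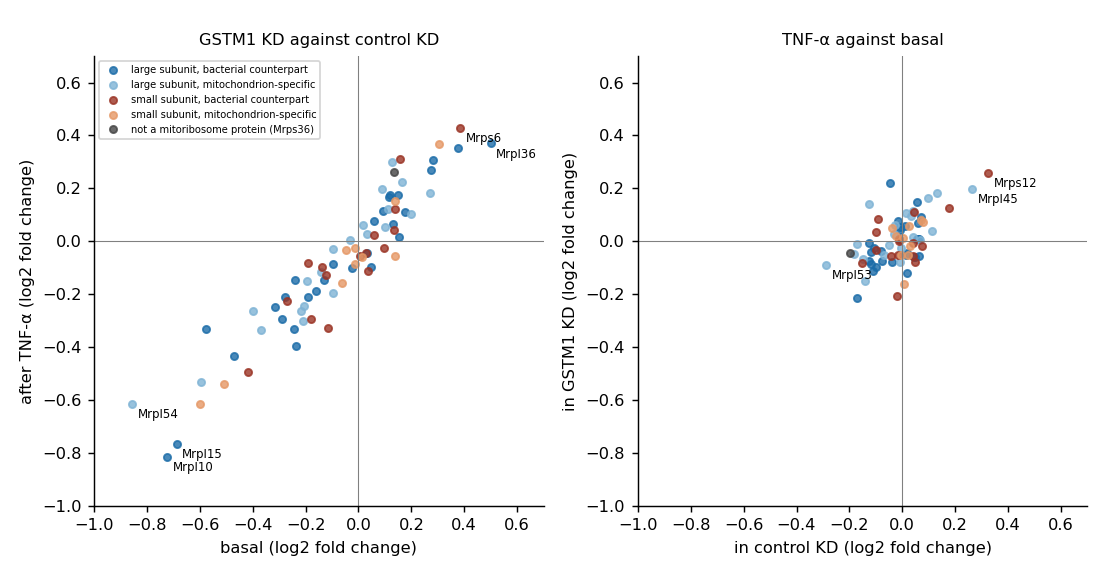
Left, log2 fold change of GSTM1 KD against control KD at the basal level (horizontal) and after TNF-α (vertical) for the 77 members, coloured by class. Right, their log2 responses to TNF-α in control KD (horizontal) and GSTM1 KD (vertical) on the same scale, where every point lies between -0.29 and 0.33.

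By class, the median knockdown log2 fold change at the basal level was -0.03 for the 29 large subunit proteins counted with a bacterial counterpart. For the 21 counted as mitochondrion-specific, Mrpl55 among them, it was -0.10. It was 0.02 and -0.01 for the 16 and 10 small subunit proteins of the same kinds. After TNF-α these medians were -0.10, -0.03, -0.07 and -0.06. The 2 called members were both in the large subunit, 1 in each kind, and no class was tested against another. Mrps36, the non-ribosomal member, was at 0.13 (SE 0.12) without stimulation and 0.26 (SE 0.13) after TNF-α. Of the 3 relatives of bacterial S18, which stand in 3 of these classes, Mrps18a was at -0.21 (SE 0.15) at the basal level, Mrps18b at -0.60 (SE 0.24) and Mrps18c at -0.19 (SE 0.18).

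Many members share a start region with a gene on the other strand. In GENCODE M21, 25 members had a protein-coding gene starting within 500 bases on the opposite strand, Mrpl46 and Mrps11 among them as partners of each other, and all 25 partners were tested. At the basal level 2 partners were called higher and 1 lower under GSTM1 KD, and after TNF-α 3 were called higher and 2 lower (edgeR). These are 12% and 20% of the partners, beside 10.2% and 16.2% of all genes. Member and partner had the same sign of log2 fold change in 8 of 25 pairs without stimulation and in 14 after TNF-α, with Mrpl46 and Mrps11 counted from each side. The partner genes named here were chosen after their values were seen. Apba3, which encodes an adaptor protein and starts 26 bases from Mrpl54, was at 30.6 and 29.4 CPM in control KD basal and 15.5 and 14.3 CPM in GSTM1 KD. It fell by 1.01 on the log2 scale (SE 0.13, adjusted p = 0.020 by edgeR), and after TNF-α by 0.97 (SE 0.13, adjusted p = 0.014 by edgeR), the direction of Mrpl54. Ppp1r10, a regulatory subunit of protein phosphatase that starts 45 bases from Mrps18b, rose by 0.72 (SE 0.14, adjusted p = 0.038 by edgeR) where Mrps18b was at -0.60. Hira, a histone chaperone gene 175 bases from Mrpl40, rose by 0.55 (SE 0.10, adjusted p = 0.035 by edgeR) where Mrpl40 was at -0.40. Lrrc46, 153 bases from Mrpl10, was low, at 1.40 to 2.42 CPM in the basal libraries, with a log2 fold change of -0.26 (SE 0.36).

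The other genes of mitochondrial translation were described by their lists. Of 6 mitoribosome proteins with other symbols, Dap3, a GTP-binding protein of the small subunit, was at 93.2 and 82.1 CPM in control KD basal and 58.2 and 59.7 CPM in GSTM1 KD. It fell by 0.57 on the log2 scale (SE 0.11, adjusted p = 0.035 by edgeR) and by 0.62 after TNF-α (SE 0.11, adjusted p = 0.025 by edgeR), and the other 5 did not pass. Of 17 translation factors and partners none passed without stimulation. Under TNF-α Oxa1l, which inserts new proteins into the inner membrane, was lower at 36.4 and 36.03 CPM against 48.1 and 48.3 CPM (-0.44, SE 0.10, adjusted p = 0.041 by edgeR). Of 31 assembly and ribosomal RNA processing genes, Ngrn, which is needed for the large mitochondrial ribosomal RNA, rose by 0.70 (SE 0.12, adjusted p = 0.031 by edgeR) and by 0.71 after TNF-α (SE 0.13, adjusted p = 0.026 by edgeR), and none was called lower. Of 17 mitochondrial aminoacyl-tRNA synthetases, Mars2 alone passed, lower after TNF-α at -0.50 (SE 0.11, adjusted p = 0.042 by edgeR). The medians of these 4 lists lay between -0.21 and -0.00 in both states, and none of their genes was called in either response to TNF-α.

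Of 10 transcription factors and coactivators of mitochondrial genes, 8 were below 0 on the log2 scale in each state, with medians of -0.21 (basal) and -0.31 (after TNF-α). Called were 2 higher and 1 lower at the basal level and 1 higher and 2 lower under TNF-α, 30% of the list each time beside 10.2% and 16.2% of all genes. Ppargc1a, the coactivator PGC-1α, was at 34.3 and 41.0 CPM in control KD basal and 58.03 and 68.8 CPM in GSTM1 KD. It rose by 0.75 (SE 0.15, adjusted p = 0.036 by edgeR), and by 0.89 after TNF-α (SE 0.15, adjusted p = 0.023 by edgeR). Pprc1, a related coactivator, was at 101 and 81.3 CPM and at 54.3 and 51.4 CPM, and fell by 0.79 (SE 0.14, adjusted p = 0.029 by edgeR) and by 1.01 after TNF-α (SE 0.11, adjusted p = 0.011 by edgeR). Esrra, a nuclear receptor that acts with PGC-1α, rose by 0.53 at the basal level (SE 0.10, adjusted p = 0.035 by edgeR). Myc fell by 1.04 after TNF-α (SE 0.23, adjusted p = 0.040 by edgeR). Nrf1, Gabpa, Gabpb1, Gabpb2, Yy1 and Ppargc1b did not pass in either state.

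The RNA core of the mitoribosome was read from mitochondrial DNA. The large ribosomal RNA, mt-Rnr2, was at 1041 and 920 CPM in control KD after TNF-α and 2544 and 1657 CPM in GSTM1 KD, and rose by 1.07 (SE 0.23, adjusted p = 0.037 by edgeR). At the basal level it was at 899 and 1578 CPM against 1519 and 1828 CPM, with overlapping groups (0.43, SE 0.28). The small ribosomal RNA, mt-Rnr1, did not pass in either state (0.40, SE 0.16, and 0.67, SE 0.25). How far the library preparation retained these RNAs is not given in the sources used here.

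The cytosolic ribosomal protein genes are set beside the members. Of 81 tested, 3 (3.70%) were called lower without stimulation and 22 (27.2%) under TNF-α, beside 5.62% and 8.92% of all genes, and none higher, with medians of -0.51 and -0.46 on the log2 scale beside -0.01 and -0.06 for the mitochondrial members. At an unadjusted p under 0.05 were 61 (75.3%) and 62 (76.5%) of the 81 cytosolic genes, and 12 (15.6%) and 16 (20.8%) of the 77 mitochondrial ones, beside 31.6% and 36.2% of all genes. Rpl7l1, an Rpl7 relative, fell by 0.57 and by 0.72 after TNF-α (adjusted p = 0.035 and 0.015 by edgeR), Rpsa, a small subunit protein, by 0.93 and 0.94 (0.035 and 0.018), and Rps13 by 0.81 and 0.71 (0.048 and 0.030). Rpl28 fell by 0.74 after TNF-α (adjusted p = 0.031 by edgeR). These counts describe the lists, and the difference between them was not tested.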

How the data were processed

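RNA-seq was analysed in 8 libraries of cultured mouse astrocytes, 2 per group. Per the labels and the study's methods, the authors made libraries with a kit that keeps the strand, aligned reads to GRCm38 with STAR (2.5.4b) and quantified genes with RSEM (1.3.0). The strand setting of the counting is not given in the sources used here. Expected counts, as deposited, estimate the fragments of each gene and are not normalized. The deposited TPM values divide by the length and sum to the same total in every library. The deposited effective lengths, in bases, were another column of the authors' files and were used only as an alternative offset. GENCODE M21 and RefSeq gave positions and promoter windows.

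Expected counts were rounded, filtered with filterByExpr, scaled by TMM and tested with edgeR's quasi-likelihood F-test (edgeR 4.0.16, R 4.3.3), with Benjamini-Hochberg adjustment at 0.05 over all genes tested. Knockdown comparisons used the 4 libraries of a state, and the TNF-α responses and their difference used all 8. The study's methods name DESeq2, which was run here as an alternative (1.42.0). CPM values are counts scaled by the TMM-adjusted library size to a common total, and logs of CPM used a pseudocount of 0.5. Intervals are 95% from the fitted model. In simulated counts for the knockdown after TNF-α (14573 genes), 99 of 100 genes changed 4-fold and 158 of 200 changed genes in all were recovered, with 2 others called. For the difference of the TNF-α responses (15139 genes) these counts were 97, 125 and 6. Tables and plots were made in Python with pandas and matplotlib.

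The members and lists were chosen with earlier results of these data known. Members were named when past the threshold, at the ends of the fold changes or levels, or for a stated role, namely the relatives of bacterial S18, Mrpl12, Mrpl45, Mrps12, Mrps30 and Mrps36. From the lists of other genes, up to 4 past the threshold in a comparison were named, by p. The fuller marker sums were added after the values were seen. Alternatives were DESeq2, other scalings and filters, effective lengths, a replicate block, other sets of libraries, and leaving out each library.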

Additional observations from a re-analysis of the deposited data

How the results depend on the processing

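Groups of 2 libraries allow no exact test to reach 0.05, and the count of calls differed between settings. For GSTM1 KD against control KD at the basal level, the 2 members called became 5 with DESeq2, 10 with no filter on low counts and 5 when all 8 libraries were fitted together (6.49%, 13.0% and 6.49% of members, beside 18.2%, 16% and 18% of all genes). After TNF-α the 1 member called became 6 with DESeq2, 11 with no filter, 6 with all 8 libraries and 2 when scaled by library size only (7.79%, 14.3%, 7.79% and 2.60%, beside 20.4%, 18.8%, 20.3% and 17.2% of all genes). Leaving out 1 library gave 0 to 24 members at the basal level and 0 to 18 after TNF-α, always 0 without a GSTM1 KD library and most without control KD replicate 2. With one group reduced to a single library, that library is assumed to vary like the others. With the replicate block, 14 members were called at the basal level (10 lower) and 11 after TNF-α (9 lower), when 31.6% and 29.5% of all genes were. They included Mrpl15 (adjusted p = 0.0011), Mrpl52 (0.0056), Mrps18b (0.013) and, higher, Mrpl36 (0.0090) without stimulation, and after TNF-α Mrpl54 (0.040), Mrpl15 (0.0043), Mrps18b (0.0090), Mrps2 (0.016), Mrps27 (0.024) and, higher, Mrps25 (0.027) and Mrps6 (0.028), by edgeR. The labels do not say what the shared numbers mean. Differences of replicate 1 from 2 correlated at 0.22 to 0.69 between groups across genes, with only 2 numbers. The cause of these changes was not tested.

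Mrpl10 was called in 11 of 13 settings in each state, with a log2 fold change from -0.85 to -0.60 at the basal level and from -0.90 to -0.72 after TNF-α, and it lost the call only without either GSTM1 KD library. Mrpl54 was called in 11 of 13 settings at the basal level (-0.95 to -0.77), Mrpl36 (higher) in 6, and Mrpl15, Mrpl23 and Mrpl52 in 4 each. After TNF-α, Mrps27 and Mrps6 (higher) were called in 5 of 13, and Mrpl54, Mrpl15, Mrps2, Mrps18b and Mrps25 (higher) in 4 each. The range of adjusted p for Mrpl10 ran from 6.26e-06 to 0.28 at the basal level. The TNF-α responses and their difference had 0 members called under every alternative run, the replicate block included. With the block, 6.44% (control KD) and 5.27% (GSTM1 KD) of all genes were called, and with only 4 libraries 0.486% and 4.68%. For the difference, 0% of all genes were called with the block and 0.506% with no filter. So few calls leave the 0 members uninformative there. Medians over members moved by less than the SD between replicate libraries (0.097), except without a control KD basal library. Without replicate 1 or 2 of that group, the basal knockdown median was 0.10 or -0.12, that of the control KD response 0.11 or -0.12 and that of the difference of responses -0.11 or 0.13.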

Other observations

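Of the 5 pseudogene symbols left out by the rule, Mrpl23-ps1 had 133 to 323 expected counts per library, and Mrpl23 held 1.075 to 2.19 times as many in the same library. RSEM divides reads that match more than 1 gene, so the level of Mrpl23 is uncertain. The other 4, copies of Mrps36 and Mrpl48, had 0 to 2.43 expected counts.

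The effective length that RSEM assigned to a member was steady for Mrpl10, whose 8 libraries spanned 0.02 on the log2 scale, and for Mrpl54 (0.09). It ranged by 0.90 for Mrpl19 and 0.70 for Mrpl47, so that the TPM of these 2 genes moves with the estimated isoform mix as well as with the counts.

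Mrps30, a large subunit protein despite its symbol, was at 62.0 and 41.6 CPM in control KD basal and at 49.7 and 47.4 CPM in GSTM1 KD. The control replicates enclosed the knockdown libraries.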
